A study of Mus musculus with 6 samples.

Results

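The 10 genes described here code for proteins that build the discs, the axoneme and the surrounding matrix of the photoreceptor outer segment. They were chosen by name from the 24346 gene symbols of each file, and all 10 have a row in every file. The 6 libraries were made from mouse RNA labelled as brain at embryonic day 17.5. Of these, 3 carry the label DKO, for loss of both miR-124a-1 and miR-124a-2. The other 3 are controls with 1 intact copy of miR-124a-1 (miR-124a-1+/-), so both groups lack at least 1 copy of that gene by label, and neither is wild type. The labels name no strain and do not say whether brains share a litter, so p-values measure only the spread between these samples. The study's title asks what miR-124a does in neuronal maturation, and the comparison asks whether these transcripts differ between the genotypes.

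The outer segment is a modified cilium of rods and cones, packed with membrane discs that carry the visual pigment. New discs form at its base as folds of membrane, tetraspanins hold their rims, a bundle of microtubules runs along one side, and a matrix rich in hyaluronan surrounds the cell. Mouse outer segments are built after birth, and mutations in many of the genes that build them cause retinal degeneration in humans.

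The transcripts were abundant in every library, which goes against the labelled tissue and age. Together the 10 genes summed to 4217 to 4427 FPKM (fragments for each kilobase of a transcript, relative to all mapped fragments) in DKO libraries and to 4150 to 4496 FPKM in control libraries. That was 1.05% to 1.07% of the library sum in DKO libraries and 1.02% to 1.08% in control libraries. Among all symbols of a library Prph2 ranked between 7 and 10, and Fscn2, the lowest of the 10, between 1890 and 2798. Rod markers were high as well, with Gnat1, the rod transducin, at 2620 to 2681 FPKM in DKO libraries and 2544 to 2861 FPKM in control libraries. Of the 7 markers of the retinal pigment epithelium, which lies against the outer segments, the summed level was 3.74 to 5.10 FPKM in DKO libraries and 3.48 to 4.39 FPKM in control libraries. Rpe65 of that list, the visual cycle isomerase, lay at 0.645 to 1.71 FPKM in DKO libraries and 0.772 to 1.60 FPKM in control libraries, and Best1 at 0.141 to 0.341 FPKM in DKO libraries and 0.139 to 0.269 FPKM in control libraries. Mki67, a marker of dividing cells, lay at 0.212 to 0.226 FPKM in DKO libraries and 0.0765 to 0.262 FPKM in control libraries, and Neurod6, a factor of cortical neurons, at 0.493 to 1.08 FPKM in DKO libraries and 0.648 to 0.780 FPKM in control libraries. The host transcript of miR-124a-1, Mir124a-1hg, was at 464 to 510.2 FPKM in DKO libraries and 420.1 to 528 FPKM in control libraries. The host transcript of miR-124a-2, listed as 2610100L16Rik (Mir124-2hg in RefSeq), was at 69.9 to 98.0 FPKM in DKO libraries and 80.3 to 115 FPKM in control libraries. Both overlap between the groups, so neither shows the labelled loss, and each of the 3 precursor rows of miR-124a stands at 0 throughout. How the loci were deleted is not stated in the labels, and groups are named here only by their labels.

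Since FPKM is per length, levels of different genes can be set side by side, and the 10 genes spanned 37.2-fold. Over all 6 libraries the mean was 1379 ± 46.4 FPKM for Prph2, 1127 ± 69.6 for Rom1, 527 ± 19.5 for Tulp1, 379 ± 11.8 for Cdhr1, 312 ± 7.35 for Rp1 and 258 ± 11.9 for Prom1 (SD, n = 6). Below these lay Rp1l1 at 113 ± 6.60, Impg1 at 106 ± 4.06, Impg2 at 96.1 ± 3.32 and Fscn2 at 37.0 ± 4.04 FPKM (SD, n = 6). The ranges of neighbours in this order did not overlap, except in 2 pairs. Rp1l1 was above Impg1 in 4 of 6 libraries, so that pair did not differ beyond its spread. Impg1 was above Impg2 in 6 of 6 libraries, although the 2 ranges touched. The coefficient of variation over the 6 libraries was 2.36% for Rp1, the steadiest gene, and 10.9% for Fscn2, the most variable.

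**Figure D1:**
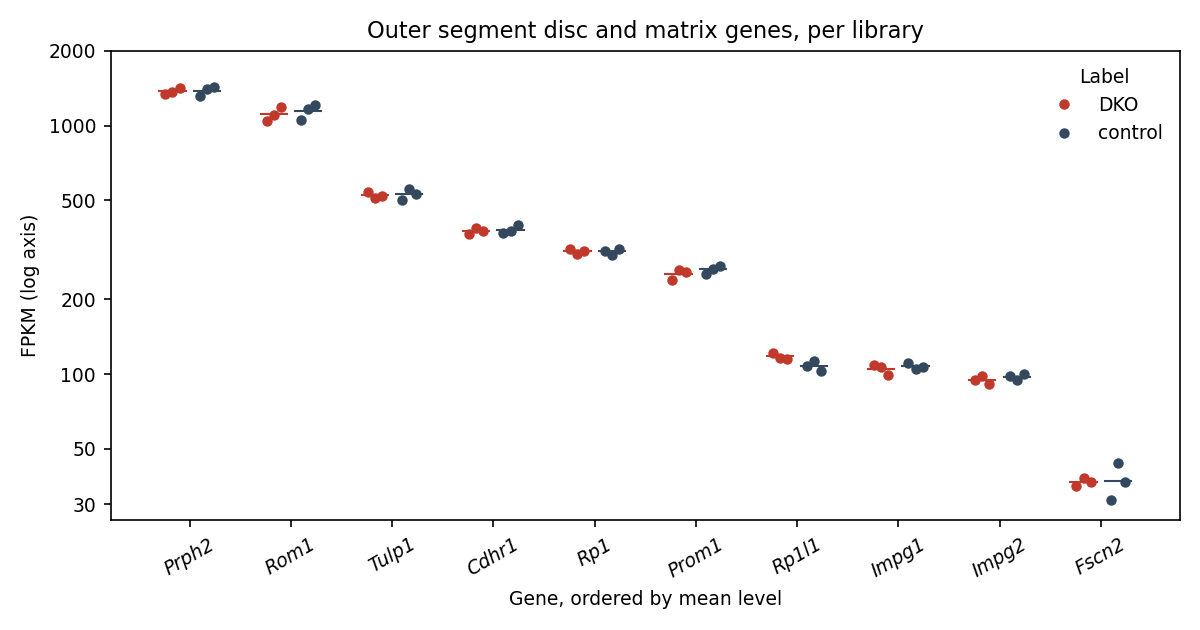
FPKM on a log axis for each of the 10 genes, ordered by mean level, with 3 points per group (1 per library, DKO left, control right) and a line at each group's mean. By group mean the order of levels is the same in both groups for all 10 genes, though the range of Impg1 overlaps those of Rp1l1 and Impg2. Rp1l1 is the gene whose points do not overlap between the groups.

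None of the 10 genes passed the test between DKO and control libraries. The test was limma on log2(FPKM + 1) over the 13215 rows that averaged 1 FPKM or more, and all 10 genes passed that filter. In it 0 of 10 genes had a Benjamini-Hochberg adjusted p under 0.05, against 3 of all tested rows, or 0.0227%. At an unadjusted p under 0.05 there was 1 of the 10 genes, Rp1l1, against 7.88% of all rows. The groups did not overlap in the same 1 gene, against 13.9% of all rows in either direction and 6.96% with DKO libraries higher, so neither share is a result about these genes. Of the 10 log2 fold changes, 2 were above 0 and 8 below, with a median of -0.01 beside -0.0016 over all tested rows. The 95% intervals of the fold changes are for single genes, without adjustment, and their width depends on the settings of the fit. Here the widest, for Fscn2, ran from 0.840 to 1.18-fold, and the narrowest, for Rp1, from 0.934 to 1.07-fold. In bulk RNA, fewer photoreceptors and less of a transcript in each cannot be told apart. The rod list of 6 markers summed to 12219 to 13312 FPKM in DKO libraries and 12839 to 13900.3 FPKM in control libraries, with 6 of 6 means lower in DKO libraries and no marker at 0 throughout. In that list Sag, the rod arrestin, had 2841 to 3336 FPKM in DKO libraries and 3118 to 3594 FPKM in control libraries, and Nrl, a rod transcription factor, 593 to 637 FPKM in DKO libraries and 659.9 to 679 FPKM in control libraries, without overlap. The cone list of 6 markers summed to 496 to 548 FPKM in DKO libraries and 558 to 603 FPKM in control libraries, with 6 of 6 means lower in DKO libraries and no overlap. Lists of other cell types were read in the same way. The amacrine list of 5 markers summed to 389 to 407 FPKM in DKO libraries and 343 to 364 FPKM in control libraries, with 5 of 5 means higher in DKO libraries and no overlap. The ganglion cell list of 5 summed to 458 to 480 FPKM in DKO libraries and 497 to 540 FPKM in control libraries, with 4 of 5 means lower in DKO libraries and no overlap. The sums of the bipolar list (4 of 5 means lower in DKO libraries) and of the Müller glia list (4 of 5 higher) overlapped. The lens list of 4 summed to 18.1 to 33.2 FPKM in DKO libraries and 31.3 to 180.1 FPKM in control libraries, where Cryaa, a lens crystallin, reached 103 FPKM in control replicate 2 against 35.1 FPKM or less in the other 5 libraries. None of these sums was tested between the groups, and a sum follows the highest genes of its list. By the median marker of each library, the groups overlapped in the cone, amacrine and ganglion cell lists. In DKO libraries this median was 70.4 to 78.1, 72.4 to 77.9 and 18.3 to 21.2 FPKM in turn. In control libraries it was 76.4 to 96.1, 65.7 to 74.8 and 19.9 to 24.5 FPKM. No tested marker of the lists passed in limma, where Tfap2b of the amacrine list had the smallest Benjamini-Hochberg adjusted p, 0.196. Before adjustment, several markers had a limma p under 0.05. Higher in DKO libraries were Tfap2b, Gad1, Pax6 and Tfap2a (amacrine). Lower were Opn1sw, Opn1mw and Gnat2 (cone), Nefl and Pou4f1 (ganglion cell), Trpm1 (bipolar), Nrl (rod), and Crygs, Cryba1 and Cryaa (lens). The other tested markers had a larger p. The part of these lists in the values below was not tested.

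**Figure D2:**
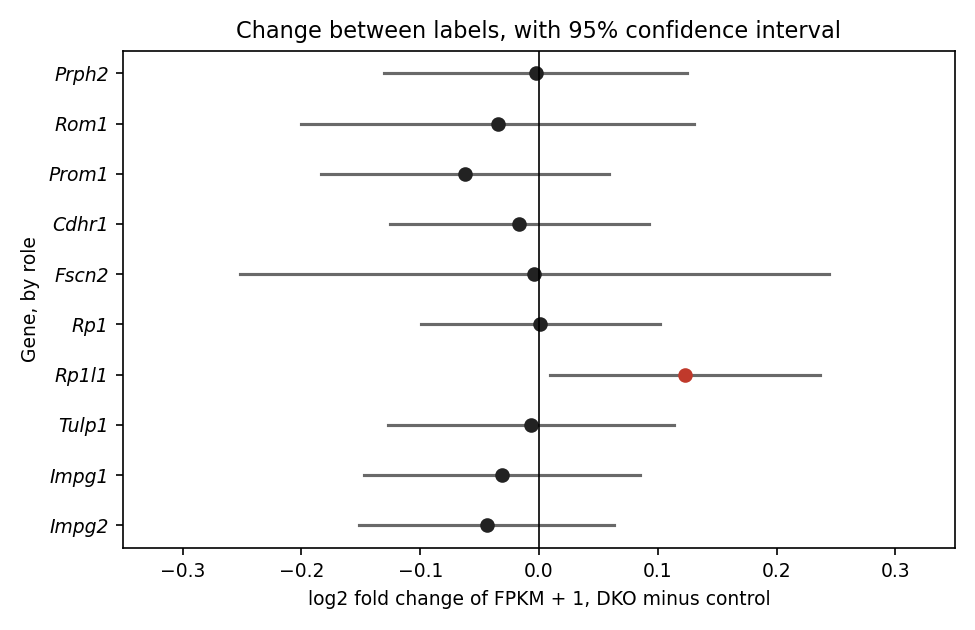
Log2 fold change (DKO minus control, on log2 of FPKM + 1) of the 10 genes in order of role from top to bottom, as points, with the 95% confidence interval from limma as lines. The interval of every gene but Rp1l1 spans 0, and Rp1l1 (red) has an interval from 0.0092 to 0.24.

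Prph2 and Rom1 code for related tetraspanins that join into the complexes of the disc rim. Prph2 (GRCm38 chromosome 17, 46910459 to 46924933, plus strand) had 1346, 1364 and 1423 FPKM in DKO libraries and 1311, 1407 and 1424 FPKM in control libraries. The groups overlapped, with control replicate 1 the lowest and control replicate 3 the highest of all. Between the groups the log2 fold change was -0.0029 (SE 0.06; limma, Benjamini-Hochberg adjusted p = 0.992). Rom1 (chromosome 19, 8927391 to 8929356, minus strand) had 1046, 1103 and 1190.25 FPKM in DKO libraries and 1053, 1162 and 1206 FPKM in control libraries. Its groups overlapped too, and its log2 fold change was -0.03 (SE 0.07; limma, Benjamini-Hochberg adjusted p = 0.941). Within a library Prph2 stood above Rom1 every time, and the ratio was 1.29, 1.24 and 1.20 in DKO libraries and 1.25, 1.21 and 1.18 in control libraries. The log2 ratio differed by 0.03 (DKO minus control; 2-sided exact permutation test over 20 assignments of the libraries, p = 0.5, and 0.7 after Benjamini-Hochberg adjustment over the 3 ratios tested, where the smallest p possible is 0.1).

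The promoter windows of Prph2 and Rom1 are shown because these 2 genes had the highest levels and varied together most closely over the libraries. Each window runs from 250 bases before to 50 bases after the gene's start (RefSeq, GRCm38.p6), 5′ to 3′ on the gene's strand. Capitals mark the letters TAATC on either strand (read as GATTA where they lie on the other), the core of the motif bound by CRX, a homeodomain factor of photoreceptors whose transcript measured 467 to 516 FPKM in DKO libraries and 499 to 546 FPKM in control libraries.
Prph2 (chr17:46910228-46910527, plus strand): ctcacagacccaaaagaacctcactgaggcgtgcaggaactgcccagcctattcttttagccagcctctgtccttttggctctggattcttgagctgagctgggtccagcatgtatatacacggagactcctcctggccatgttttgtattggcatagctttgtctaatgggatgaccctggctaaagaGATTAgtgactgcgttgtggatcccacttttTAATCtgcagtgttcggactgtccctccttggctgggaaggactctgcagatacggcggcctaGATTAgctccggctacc
Rom1 (chr19:8929307-8929606, minus strand): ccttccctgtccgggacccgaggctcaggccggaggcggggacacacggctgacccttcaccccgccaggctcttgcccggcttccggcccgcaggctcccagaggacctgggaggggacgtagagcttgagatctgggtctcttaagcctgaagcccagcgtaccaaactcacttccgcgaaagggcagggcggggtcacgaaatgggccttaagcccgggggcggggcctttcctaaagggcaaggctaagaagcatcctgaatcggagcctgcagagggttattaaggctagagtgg

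The Prph2 window held 3 matches, which begin 61 and 30 bases before the start and 33 bases after it, and the Rom1 window held none. Of the 10 genes, 8 have such a window, and Prom1 has 2. The 5-base core was present in 5 of the 8 genes (Prph2, Prom1, Tulp1, Impg1 and Impg2), in Prom1 only in the second window. Counted by window that was 5 of 9, against 22.0% of all 32851 windows. The 6-base form TAATCC, searched on both strands, contains the core and was in 0 of the 9 windows of the 8 genes, against 7.06% of all windows. A match is a description of letters and not a site.

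Prom1, Cdhr1 and Fscn2 act where discs form. Prom1 codes for a membrane protein of the growing disc edge (chromosome 5, 43993620 to 44102032, minus strand). It had 239, 262 and 257 FPKM in DKO libraries and 253, 265 and 273 FPKM in control libraries. Its log2 fold change of -0.06 was, after Rp1l1, the largest in size of the 10 genes, and it did not pass (SE 0.05; limma, Benjamini-Hochberg adjusted p = 0.810). DKO replicate 1 was the lowest library and control replicate 3 the highest, while the other 4 lay within 253 to 265 FPKM. An annotated antisense transcript, Gm16401, overlaps 424 exonic bases of Prom1, and whether reads were counted by strand is not given in the sources used here. Cdhr1 codes for a cadherin found at the base of the outer segment (chromosome 14, 37077857 to 37098347, minus strand). It had 366, 386 and 378 FPKM in DKO libraries and 370.1, 375 and 399 FPKM in control libraries, with a log2 fold change of -0.02 (SE 0.05; limma, Benjamini-Hochberg adjusted p = 0.959). Fscn2 codes for the retinal fascin, which bundles actin (chromosome 11, 120361534 to 120368168, plus strand). It had 35.5, 38.1 and 36.9 FPKM in DKO libraries and 31.3, 43.7 and 36.7 FPKM in control libraries. The control libraries spread to both sides of all DKO libraries, and the log2 fold change was -0.0040 (SE 0.11; limma, Benjamini-Hochberg adjusted p = 0.994). This value rested on single control libraries: it was 0.12 without control replicate 2 and -0.12 without control replicate 1, and neither passed.

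Rp1 and Rp1l1 code for related proteins with doublecortin domains, which bind the microtubules of the axoneme. Rp1 (chromosome 1, 3999557 to 4409241, minus strand) had 318, 303 and 314 FPKM in DKO libraries and 313, 302 and 319.6 FPKM in control libraries. The control range enclosed the DKO range, and the log2 fold change was 0.0013 (SE 0.04; limma, Benjamini-Hochberg adjusted p = 0.995). Rp1l1 (chromosome 14, 63992506 to 64035025, plus strand) had 122, 116 and 115 FPKM in DKO libraries and 108, 113 and 103 FPKM in control libraries. All 3 DKO libraries lay above all 3 control libraries, and the lowest DKO library was 1.93 FPKM above the highest control library. The mean was 118 ± 3.69 FPKM in DKO libraries and 108 ± 5.02 FPKM in control libraries (SD, n = 3 each). The log2 fold change was 0.12 with SE 0.05 and a 95% interval of 0.0092 to 0.24, with a limma unadjusted p = 0.0374 and a Benjamini-Hochberg adjusted p = 0.601, so the gene did not pass. Without DKO replicate 1 the log2 fold change was 0.10 (limma unadjusted p = 0.110), and without control replicate 3 it was 0.09 (unadjusted p = 0.117). Control replicate 3, the lowest library for Rp1l1, was also the one with most of its sum in rows of short RNAs, 6.36% against 1.76% to 3.13% in the others. With those rows left out and each library rescaled, the log2 fold change of Rp1l1 was 0.14, but the median of all tested rows moved to 0.017 as well. Relative to that median, Rp1l1 stood at 0.126 after the rescaling and at 0.125 before it. The rescaling divides all rows of a library by the same number, so this likeness was fixed in advance. The ratio of Rp1 to Rp1l1 was 2.60, 2.61 and 2.73 in DKO libraries and 2.90, 2.67 and 3.10 in control libraries. These ratios overlapped between the groups, and their log2 difference of -0.12 had an exact permutation p = 0.2 (0.6 after adjustment over the 3 ratios).

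Rp1l1 is the 1 gene of the 10 that lies near a gene deleted by label. Its end is 0.552 Mb from the start of Mir124a-1hg, the host of miR-124a-1 (chromosome 14, 64587331 to 64593961), while Cdhr1 on the same chromosome is 27.5 Mb away. After the value of Rp1l1 had been seen, all tested genes within 1 Mb of the host gene were read from the same fit. Of these 14 genes, with Rp1l1 and the host among them, 9 were higher in DKO libraries and 5 lower, going by the log2 fold change, and 0 passed in limma (Benjamini-Hochberg adjusted p 0.538 to 0.949). Over all 13215 tested rows, 6537 were higher and 6678 lower. Before adjustment, 2 of the 14, Rp1l1 and Fbxo16, had a limma p under 0.05, against 7.88% of all tested rows. The groups did not overlap in 3 of the 14, against 13.9% of all tested rows, and over so few genes none of these counts is a result about the region. These 3 were Rp1l1 and Fzd3, a Wnt receptor (log2 fold change 0.17), with DKO libraries higher, and Fbxo16, an F-box protein (-0.59), with DKO libraries lower. Msra, the tested gene between Rp1l1 and the host, had -0.05, and the host itself 0.04.

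**Figure D3:**
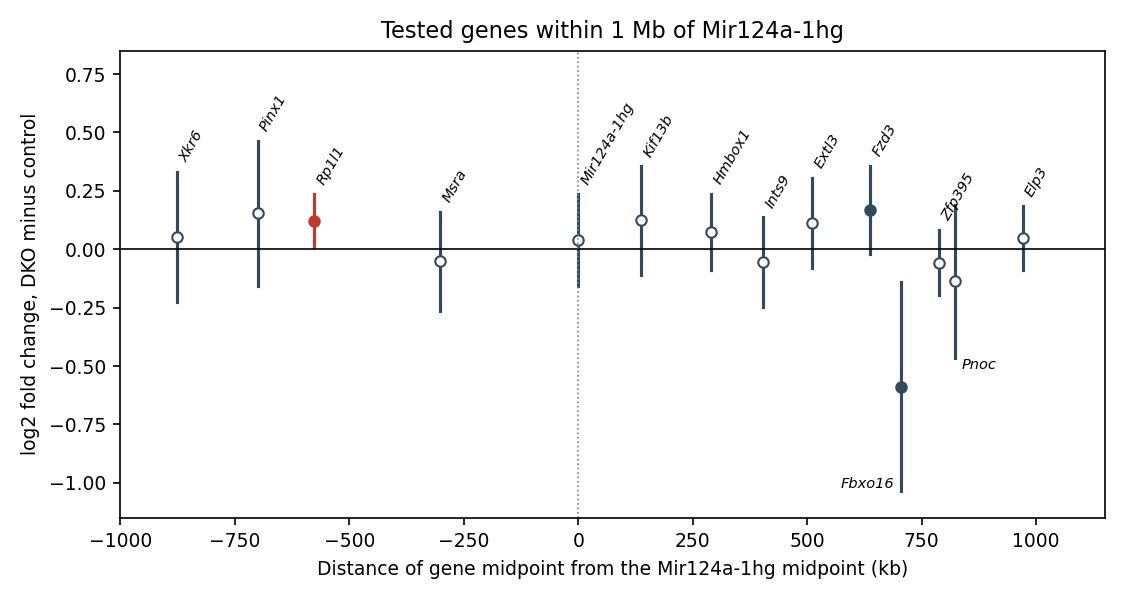
Log2 fold change (DKO minus control) with its 95% confidence interval for the 14 tested genes within 1 Mb of Mir124a-1hg, against the distance of each gene's midpoint from that of the host gene, in kb. Filled points are genes whose groups did not overlap (Rp1l1 in red, Fzd3 and Fbxo16), and open points are genes whose groups overlapped.

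Tulp1, a protein of the tubby family that photoreceptors need to move proteins into the outer segment (chromosome 17, 28351515 to 28365222, minus strand), had 542, 512 and 522 FPKM in DKO libraries and 501, 555 and 528 FPKM in control libraries. The control libraries covered the whole DKO range, and the log2 fold change was -0.0066 (SE 0.05; limma, Benjamini-Hochberg adjusted p = 0.985).

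Impg1 and Impg2 code for the proteoglycans of the interphotoreceptor matrix, which bind hyaluronan around the outer segments. Impg1 (chromosome 9, 80313330 to 80465481, minus strand) had 109, 107 and 99.4 FPKM in DKO libraries and 111, 104 and 107 FPKM in control libraries, with a log2 fold change of -0.03 (SE 0.05; limma, Benjamini-Hochberg adjusted p = 0.923). Impg2 (chromosome 16, 56204313 to 56273756, plus strand) had 94.6, 98.3 and 91.0 FPKM in DKO libraries and 98.6, 94.4 and 99.7 FPKM in control libraries, with a log2 fold change of -0.04 (SE 0.05; limma, Benjamini-Hochberg adjusted p = 0.865). In both genes DKO replicate 3 was the lowest library, and the groups overlapped. Their ratio stayed between 1.09 and 1.15 in DKO libraries and between 1.07 and 1.13 in control libraries (log2 difference 0.01, exact permutation p = 0.7, and 0.7 after adjustment over the 3 ratios).

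The genes did not rise and fall as 1 group over the 6 libraries. Of the 45 pairs among them, 23 had a Pearson's r above 0 and 22 below (median 0.0014). Prph2 and Rom1 had the highest r, 0.96 (Spearman's rho 0.94), and Prom1 with Cdhr1 had 0.84 (rho 0.83). Impg1 and Impg2 had 0.75 (rho 0.60), and Prph2 with Impg1 the lowest, -0.80 (rho -0.83). These are descriptions over 6 libraries, in which the points share library depth and composition and the coefficients of variation are those given above. By the mean standardized value of the 10 genes, the tested rows most like them were Rsph3a (r 0.99), 4833428L15Rik (0.99), Slc20a1 (0.99), Parvb (0.99) and Fpgs (0.98). In all, 102 of 13205 rows had an r above 0.9, at 6 libraries, so these names set no row apart.

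**Figure D4:**
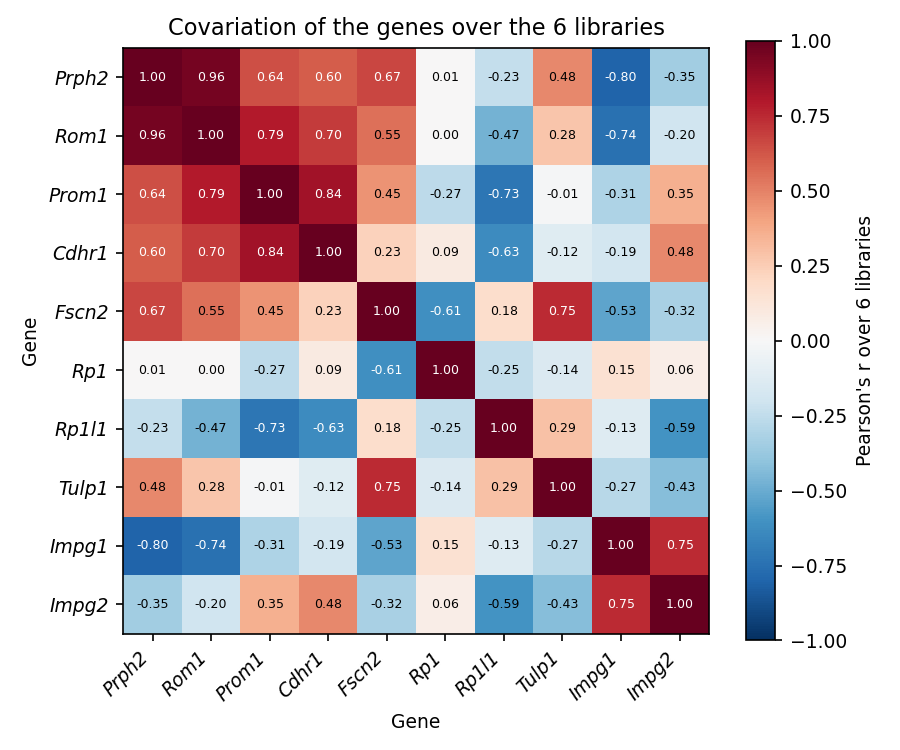
Pearson's r over the 6 libraries between the log2(FPKM + 1) values of each pair of the 10 genes, in order of role, with red above 0 and blue below. Prph2 and Rom1 have 0.96 and Prph2 and Impg1 -0.80, and there is no common sign over all pairs.

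Other genes of the same structures were read from the same fit. Of 16 other outer segment genes, 15 were tested, with 7 above 0 and 8 below, a median log2 fold change of -0.0025 and 0 called in either direction. Those of smallest p were the rod channel subunit Cnga1 (-0.13), the flippase subunit Tmem30a (-0.07) and the cone channel subunit Cnga3 (-0.17), with limma Benjamini-Hochberg adjusted p of 0.662, 0.758 and 0.760. Abca4, a disc rim transporter of retinoids, had 181 to 196 FPKM in DKO libraries and 171 to 194 FPKM in control libraries, which overlap. Of 12 genes of the connecting cilium and axoneme, 8 were above 0 and 4 below, with a median of 0.03 and 0 called. The kinesin subunit Kif3a (0.10), the transition zone gene Rpgrip1l (0.19) and the kinase gene Mak (0.09) had the smallest p. Their limma Benjamini-Hochberg adjusted p was 0.684, 0.698 and 0.798. Of 10 other matrix genes, 8 were tested, with 3 above 0 and 5 below, a median of -0.02 and 0 called. Efemp1, a fibulin, had 0.13 and Cd44, a hyaluronan receptor, 0.15. Rbp3, the retinoid carrier of the matrix, had 869 ± 33.9 FPKM in DKO libraries and 897 ± 10.7 FPKM in control libraries (SD, n = 3 each).

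Relatives of the 10 genes by family were mostly far lower than the photoreceptor member. Prom2 lay at 0.0983 to 0.159 FPKM in DKO libraries and 0.125 to 0.240 FPKM in control libraries, and the highest value of Cdhr2, Cdhr3 and Cdhr5 in any library was 0.321 FPKM, for Cdhr3. In the tubby family Tub had 106 ± 3.39 FPKM in DKO libraries and 107 ± 9.53 FPKM in control libraries, while Tulp3 and Tulp4 lay lower and Tulp2 reached at most 0.440 FPKM. The fascins were the exception, since Fscn1 had 60.7 ± 1.55 FPKM in DKO libraries and 61.3 ± 1.58 FPKM in control libraries (SD, n = 3 each), above Fscn2 in every library. Of the 16 relatives listed, 9 were tested, with 3 above 0 and 6 below, a median of -0.0087 and 0 called. Those of smallest p were Dcdc2a (-0.38), Dclk1 (0.11) and Tulp3 (-0.13), with limma Benjamini-Hochberg adjusted p of 0.591, 0.710 and 0.768. At an unadjusted p under 0.05 there was 1 of the 44 genes tested in these 4 lists, Dcdc2a, against 7.88% of all tested rows. The groups did not overlap in 6 of the 44, against 13.9% of all tested rows. By list these were 0 of 15 outer segment genes, 3 of 12 cilium and axoneme genes, 1 of 8 matrix genes and 2 of 9 relatives. The 3 cilium and axoneme genes were higher in DKO libraries, as in 6.96% of all tested rows. Over so few genes none of these counts is a result about a list.

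None of the 10 genes held a match to the miR-124 seed in its longest annotated 3' UTR. The letters GTGCCTT, the 7-base complement of positions 2 to 8 of miR-124-3p, were present in 0 of the 10 and in 16.1% of 12189 tested genes with such a UTR. The 6-base form TGCCTT, which is contained in them, was also in 0 of the 10, against 50.7% of the tested genes. The median UTR length was 934 bases for the 10 genes and 1258 bases for the tested genes. Among the 10 it ran from 62 bases for Fscn2 and 281 for Rom1 to 2967 for Impg2. The part of UTR length in these counts was not tested. The absence of a match says only that these letters are not in these UTR models, and other parts of the transcripts were not searched.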

How the data were processed

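TRIzol was used to extract RNA, and a TruSeq stranded mRNA kit to prepare libraries, per the labels' protocols. Each library has 1 deposited file of gene symbols and FPKM values, per the file headers. The tools, per the submitters' processing notes, were Cuffdiff 2.2.1, TopHat2 2.1.1 and Bowtie2, and the build was mm10. Which annotation was used, and how libraries were scaled to each other, is not stated there. File headers write CKO where the labels write DKO, without explanation. Read totals are not used here. The most frequent ratio between values under 0.3 FPKM put the depths at 0.953 to 1.24 relative to DKO replicate 1.

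FPKM values were tested as deposited, on the log2(FPKM + 1) scale (limma 3.58.1, R 4.3.3, eBayes with a trend), as DKO minus control, leaving out rows whose mean was under 1 FPKM. P-values were Benjamini-Hochberg adjusted over all tested rows with a threshold of 0.05. This scale understates changes of low genes. The script was tested on simulated data. Ratios of 2 genes were compared with exact permutation tests (SciPy 1.17.1). Coordinates and 3' UTRs come from GENCODE M21 (GRCm38, the assembly of mm10), promoter windows from RefSeq. The 10 genes and the lists were chosen with earlier results of these data known. Named from the lists are the 3 genes of smallest p of each, fixed markers, and the 5 rows most like the 10 genes. Some listed genes are not reported here by name. Alternatives were other pseudocounts, filters, scalings, variance models and weights, a replicate block, and leaving out each library.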

Additional observations from a re-analysis of the deposited data

How the results depend on the processing

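The count of 0 of the 10 genes past the threshold held in all 18 alternatives of the limma fit, as did the count of 0 in the 4 lists of other genes. Rp1l1 stayed above 0 in all 18 (0.09 to 0.16; limma, Benjamini-Hochberg adjusted p 0.490 to 0.847), and its unadjusted p was under 0.05 in 11 of them. Prom1 and Impg2 stayed below 0 in all 18. Of the 180 values of single genes, 29 changed sign, all of size 0.12 or less. Of these, 8 came with the 2 scalings by library sum, which moved the median of all tested rows from -0.0016 to 0.027 and, with short RNA rows left out, to 0.017. Such a scaling divides all rows of a library by the same number, so values relative to that median stay nearly fixed by construction. Of the 20 such values, 0 changed sign, and the largest move was 0.0016, which is no check of the results. With each library scaled to a sum of 1000000, Prph2 had 0.027, Cdhr1 0.013, Fscn2 0.025 and Tulp1 0.023. With short RNA rows left out as well, the same genes had 0.016, 0.0025, 0.015 and 0.013. With quantile normalization Rom1 had 0.0019, Fscn2 0.0022 and Tulp1 0.010, and with arrayWeights Cdhr1 had 0.00074 and Rp1 -0.0061, for which the cause was not tested.

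Without single libraries the log2 fold changes ranged from -0.040 to 0.020 for Prph2, -0.091 to 0.0090 for Rom1, -0.038 to 0.016 for Cdhr1, -0.12 to 0.12 for Fscn2, -0.021 to 0.021 for Rp1, -0.043 to 0.030 for Tulp1 and -0.058 to 0.0084 for Impg1. The log2 ratio of Impg1 to Impg2 ranged from -0.014 to 0.029, that of Prph2 to Rom1 from 0.0048 to 0.058 and that of Rp1 to Rp1l1 from -0.18 to -0.070.

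The count over all rows, 3, was 25 with no filter on low values, 5 with each library scaled to a sum of 1000000 and 1 with eBayes without a trend. Without single libraries it was 1 to 4, with 1 without control replicate 2. The replicate block, which takes the number in the labels as a pair, left 0 of the 10 genes past the threshold, with Rp1l1 at 0.12 (limma, Benjamini-Hochberg adjusted p = 0.490), and 2 rows in all. Libraries with the same number had deviations from their group means that correlated at 0.072, 0.0063 and 0.10, so the numbers were not taken as pairs. With the 5-base core in place of the 6-base motif, promoter windows of 5 genes held a match in place of 0. With 3 libraries a group, a measured difference smaller than the reach to either side of a gene's interval does not have an unadjusted p under 0.05. The adjusted threshold asks for more. Rp1l1, at 0.12 with an interval that left out 0, did not pass it (limma, Benjamini-Hochberg adjusted p = 0.601).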
